A study of Mus musculus with 15 samples.

Results

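The genes described here encode collagens and other proteins of the extracellular matrix, with the enzymes that fold, cross-link and cut them. A gene was included when a probe set with a single platform gene symbol carried a collagen chain symbol (Col, a number, a and a number), or 1 of 31 matrix symbols fixed by name, of which 29 were found; Fbn1 and Loxl2 were not matched and are not analysed here. Col6a5 and Col6a6 had more than 1 probe set, and the brightest at 0 min was kept. This gave 73 genes, 44 collagen chains and 29 others, out of 19452 genes with a single symbol and 25175 probe sets in all.

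The samples were C2C12 (LKO1) cells, a mouse myoblast line that fuses into myotubes when growth factors are withdrawn, carrying the empty vector, grown under puromycin and kept proliferating below confluence. Actinomycin D (8 µg/mL) was given to every group, and since the clock started only after 30 min of it, there was no untreated group. RNA was collected at 0 and 10 min, then at 50, 110 and 230 min. Each of the 5 time points had 3 arrays, 1 from each of 3 replicate time courses, 15 arrays in all. A single cell line stands for all muscle cells here. The study describes its half-life experiment as repeated in triplicate. Whether the 3 time courses were separate cultures is not given in the sources used here. The p-values therefore speak of spread among the arrays only, and that spread may be technical.

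The matrix that surrounds muscle cells is built from fibrillar collagens, which form ropes, and from a basement membrane, a sheet of type IV collagen, laminins, nidogens and perlecan that lies against the cell. Collagen chains are wound into triple helices in the endoplasmic reticulum after hydroxylation of proline and lysine, and are cross-linked outside the cell by lysyl oxidases. Matrix metalloproteases cut the finished matrix, and tissue inhibitors of metalloproteases (TIMPs) block them. Actinomycin D binds DNA and stops RNA synthesis, so a transcript made earlier can only persist or be degraded, and the design asks how fast each transcript is lost.

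Values are linear ratios of a probe set to the 5th percentile of its array, so that the dimmest probe sets sit near 1. A probe set was counted as brighter when its mean log2 ratio over all 15 arrays was above the median of all probe sets, a ratio of 2.08. Of the 73 genes, 56 were among the 12587 brighter probe sets, 31 collagens and 25 others, and 17 were dimmer. Because a ratio close to 1 cannot fall much further, the dimmer 17 are given as counts and the description rests on the 56.

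The cells carried the markers of their label. All 6 of 6 myoblast markers were brighter, led by Des at a mean ratio of 42.3 at 0 min, against 3 of 8 myotube markers, 1 of 8 fibroblast and adipocyte markers (Pdgfra, 4.72), 1 of 4 immune markers, 1 of 4 epithelial markers and 0 of 4 endothelial markers. The highest myotube marker, Acta1 at 12.02, was above the lowest myoblast marker at 5.46. The lowest mean of the fibroblast and adipocyte list was 1.18, and the summed ratio of its 8 genes was 16.1 at 0 min and 11.2 at 230 min. Over all probe sets the array median fell from between 2.42 and 2.74 at 0 min to between 1.44 and 1.72 at 230 min. Replicate 1 at 110 min and replicate 2 at 230 min gave the lowest arrays of their time points, with medians of 1.59 and 1.44. In bulk RNA of this kind, fewer cells of a type and less RNA per cell cannot be told apart.

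Several matrix transcripts were among the most abundant that the arrays measured. Fn1, which encodes the adhesive glycoprotein fibronectin, had a mean of 159 ± 12.96 (SD, n = 3 arrays) at 0 min and ranked 32 of 19452 genes by its ratio. Col1a2 ranked 51, Sparc 58, Thbs1 73, Col1a1 113 and Col3a1 125. Different probe sets respond differently to their targets, so these ranks order hybridisation signals and not numbers of molecules.

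On the deposited scale most of the matrix transcripts fell with time, as most probe sets did. In a linear trend of the log2 ratio against time, fitted with limma over all probe sets with the time course as a block, 65 of 73 fell and 0 rose (Benjamini-Hochberg adjusted p under 0.05), whereas 75.8% of all probe sets and 96.1% of the brighter ones fell, and 0.302% rose. Among the 56 brighter genes 50 fell. The 6 that did not pass were Col1a2, Col3a1, Sparc, Timp1, Bgn and Col8a2, and the dimmer Col10a1 and Lum, named here after their values were seen, did not pass either. The direction rests on how the arrays are scaled. After division of the arrays by their medians, 2 of 73 fell and 15 rose, when 21.4% of all probe sets fell and 40.3% rose (42.1% and 3.11% of the brighter ones). After division by their 75th percentiles, 0 fell and 70 rose, when 7.56% of all probe sets fell and 74.1% rose (15.1% and 49.4% of the brighter ones).

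The order of the transcripts does not rest on that scaling, because dividing an array by any number shifts the slope of every probe set by the same amount. Over the 56 matrix genes the slope had a median of -0.16 log2 per hr, and over the brighter probe sets one of -0.25. The slopes of 53 of the 56 lay above that median, 31 of 31 collagens and 22 of 25 others, and the exceptions were Lamb1, Timp3 and Loxl1. By level, these were 33 of the 36 genes with a mean ratio of at least 6.108 and 20 of the 20 between 2.08 and 6.108. All of those 20 except Postn and Mmp2 were collagens, so many of the collagens counted here had low ratios. In time courses 1, 2 and 3 taken alone, 54, 51 and 54 of the 56 lay above the median of the brighter probe sets, and in each of them 31 of 31 collagens did.

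**Figure D1:**
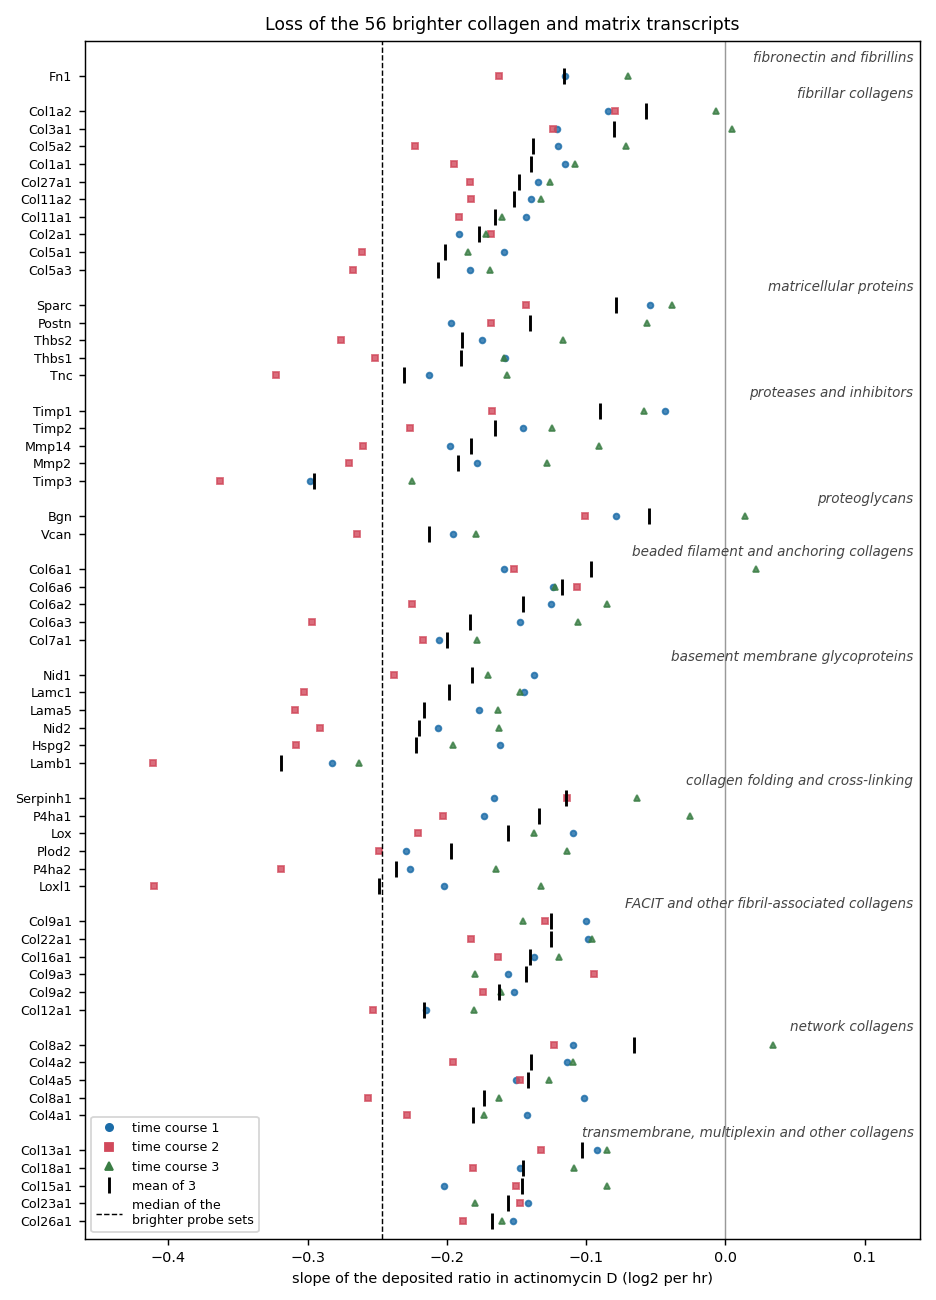
Slopes of the deposited ratio in log2 per hr (x axis) for the 56 brighter collagen and matrix genes (y axis), grouped by role. Symbols are the 3 time courses, black bars their mean, and the dashed line the median of the 12587 brighter probe sets at -0.25; the mean of 53 of the 56 genes lies to its right.

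Slope also varied with level over the whole array, so each gene was set beside the 500 probe sets closest to it in mean log2 ratio. The slope was above the median of those probe sets for 52 of the 56 brighter genes, again for 31 of 31 collagens but for 21 of 25 others. The median gene stood at the 84.9th percentile of its neighbours in level, the median collagen at the 90.8th and the median of the other genes at the 73.0th. For the 36 genes with a mean ratio of at least 6.108 the median percentile was 75.3, and 18 of 36 were above the 75th. For the 20 between 2.08 and 6.108, mostly collagens, it was 91.7, and 19 of 20 were above the 75th. Whether closeness to the floor of the array made these 20 slopes shallower was not tested. Fn1, among the brightest, was close to the middle of the probe sets of its level, at the 52.4th percentile. Thbs1, whose slope was above the median of the brighter probe sets, was at the 18.8th percentile at its own level.

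**Figure D2:**
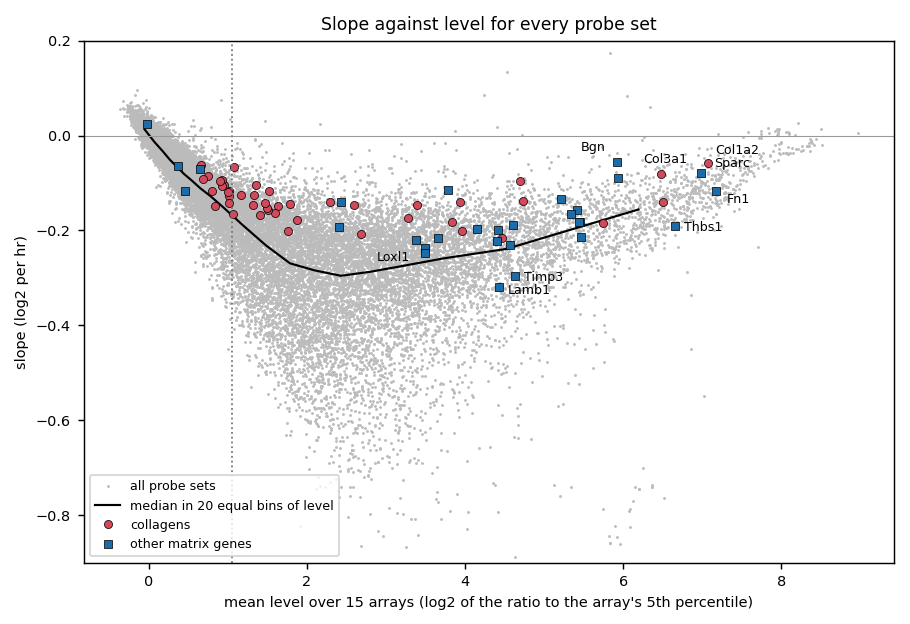
Slope of every probe set in log2 per hr (y axis) against its mean log2 ratio over 15 arrays (x axis), with collagens in red and the other matrix genes in blue. The black line joins medians in 20 equal bins of level, the dotted line marks the median level, and 30 probe sets with slopes below the plotted range are not drawn; most matrix genes lie above the black line, and Lamb1, Timp3 and Thbs1 lie below it.

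A test against the typical transcript depends on how that transcript is defined. After each array was centred on the median log2 ratio of the brighter probe sets, 70 of 73 genes were slower and 0 faster, but 74.1% of all probe sets and 49.3% of the brighter ones were slower too, since their median slope was then 0.07 and not 0. A second centre, the median change of the brighter probe sets, was therefore added after the data were seen. With it 55 of 73 were slower (59.1% of all probe sets) and 0 faster. Among the 56 brighter genes 38 were slower and 0 faster, compared with 23.1% slower and 25.1% faster over the brighter probe sets. By role, 24 of 31 brighter collagens and 14 of 25 brighter others were slower. Without replicate 1, 2 or 3 the 38 became 25, 24 and 27, against 17.03%, 16.3% and 13.7% of the brighter probe sets, and without the low 110 min and 230 min arrays they became 29, against 21.1%. Centred on the median of all probe sets instead, 5 of the 56 were slower and 2 faster, compared with 3.11% and 42.1% of the brighter probe sets.

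The loss was seen at the later times. At 10 min 0 of 73 genes differed from 0 min (limma, 0.0% of all probe sets fell), with 0 at an unadjusted p under 0.05, and at 50 min 0 differed (1.03% of all probe sets and 1.82% of the brighter ones fell), with 4 at an unadjusted p under 0.05. At 110 min 27 had fallen (51.1% of all probe sets) and at 230 min 62 had (68.8% of all probe sets). Of the 56 brighter genes 25 and 48 had fallen at these times, compared with 77.0% and 91.5% of the brighter probe sets. These counts lean on single time courses, though not equally on each. At 110 min 1 gene fell without replicate 1, 20 without replicate 2 and 9 without replicate 3. The shares of all probe sets were 23.6%, 41.0% and 36.0%. At 230 min 61 fell without replicate 1, 21 without replicate 2 and 35 without replicate 3. The shares of all probe sets were then 66.2%, 39.7% and 51.3%. Without the low 110 min and 230 min arrays 9 fell at 110 min and 51 at 230 min. In that setting 36.5% and 62.9% of all probe sets did. The median brighter matrix gene had 98.5% ± 13.2 (SD, n = 3 time courses) of its 0 min ratio at 50 min, 75.04% ± 15.5 at 110 min and 65.7% ± 9.87 at 230 min. The median brighter probe set had 93.4% ± 11.6, 62.7% ± 16.4 and 53.6% ± 9.22 at the same times. In every time course the matrix genes were above the brighter probe sets at 230 min, at 71.6%, 54.4% and 71.2% in replicates 1, 2 and 3 against 57.0%, 43.1% and 60.6%.

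**Figure D3:**
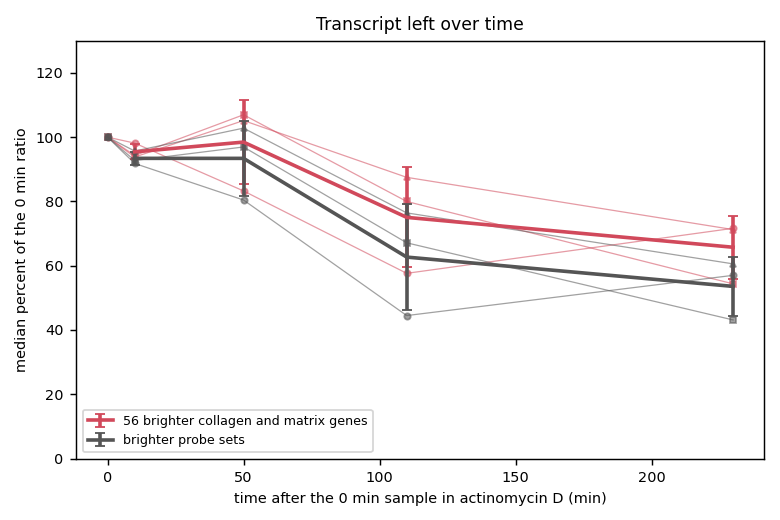
Median percent of the 0 min ratio left (y axis) against minutes in actinomycin D after the 0 min sample (x axis) for the 56 brighter matrix genes (red) and the 12587 brighter probe sets (grey). Thin lines are the 3 time courses, thick lines their mean with the SD; at 230 min the means were 65.7% and 53.6%.

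Fibronectin and the chains of type I and type III collagen, the main fibrillar collagens of connective tissue, were bright. Of these, Fn1 and Col1a1 fell in the trend, and Col1a2 and Col3a1 did not pass. The Fn1 probe set (10355403) read 174, 153 and 150 in replicates 1, 2 and 3 at 0 min and 132, 109 and 122 at 230 min. The groups did not overlap, and 76.2% ± 4.96 (SD, n = 3) was left, with a slope of -0.12 ± 0.03 log2 per hr (SE, adjusted p = 0.00411, limma). Fbn2, a fibrillin of elastic microfibrils, was dim, with a mean of 1.73 at 0 min and 1.42 at 230 min.

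Type I collagen is a trimer with more of the alpha 1 than of the alpha 2 chain, and the transcripts of these chains had different slopes. Col1a2 (10536220) was 145, 130 and 136 at 0 min and 118, 114 and 131 at 230 min, so that the highest array at 230 min was above the lowest at 0 min. Its slope of -0.06 ± 0.03 log2 per hr did not pass the test (SE, adjusted p = 0.116, limma). Col1a1 (10380419) was 97.9, 94.99 and 114 at 0 min and 77.5, 57.5 and 81.6 at 230 min, without overlap. It fell by 0.14 ± 0.03 log2 per hr (SE, adjusted p = 0.00216, limma), and 70.5% ± 9.42 (SD, n = 3) was left. The difference between the chains, taken within each array and so free of scaling, was -0.08 log2 per hr, the Col1a1 slope being the lower in 3 of 3 time courses (exact permutation of the time labels within time courses, two-sided, n = 15 arrays, p adjusted over 16 pairs = 0.00458).

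Col3a1 (10346015), the type III chain, was 103, 82.1 and 98.5 at 0 min and 71.2, 67.1 and 88.2 at 230 min, which overlapped, and had a slope of -0.08 ± 0.04 log2 per hr (SE, adjusted p = 0.0907, limma). It did not differ detectably from Col1a1, by -0.06 log2 per hr for Col1a1 minus Col3a1 with 2 of 3 time courses in that direction (exact permutation test, adjusted p = 0.123, n = 15 arrays). Type V collagen nucleates the fibrils of type I. Its chains Col5a1 and Col5a2 had slopes of -0.20 and -0.14, and Col5a1 was lower in 3 of 3 time courses without passing the test of the difference (-0.06 log2 per hr, exact permutation adjusted p = 0.114, n = 15 arrays). The counts by role here and in what follows stand against the 75.8% of all probe sets and 96.1% of the brighter ones that fell in the same trend, and nothing particular to a role is read from them. Of the 11 fibrillar chains 9 fell, and the 10 brighter ones had between 58.8% and 88.5% left at 230 min.

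Type IV collagen is the network of the basement membrane, built largely from its alpha 1 and alpha 2 chains. The genes of these chains lie head to head and are transcribed in opposite directions, and their annotated starts overlap, so the stretch that both transcripts share is shown. In GRCm38.p6, RefSeq places the start of Col4a2 on the plus strand at 11312805 of chromosome 8 and that of Col4a1 on the minus strand at 11312826. The plus strand of chr8:11312801-11312830 is given 5′ to 3′, with capitals for the 22 bases from one start to the other, which both annotated transcripts cover.
Col4a2 and Col4a1 starts: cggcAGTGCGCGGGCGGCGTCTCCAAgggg

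The transcripts of the type IV chains differed in slope. Col4a2 (10570068) was 20.7, 16.6 and 15.8 at 0 min and 17.03, 10.25 and 10.8 at 230 min, and Col4a1 (10576973) was 20.9, 15.2 and 16.1 at 0 min and 15.3, 8.52 and 9.94 at 230 min. In both, the groups overlapped because replicate 1 was high at both times. The slopes were -0.14 ± 0.04 for Col4a2 (SE, adjusted p = 0.00552, limma) and -0.18 ± 0.04 for Col4a1 (SE, adjusted p = 0.00054). Col4a1 had the lower slope in 3 of 3 time courses, by -0.04 log2 per hr (exact permutation test, adjusted p = 0.016, n = 15 arrays). Of the 9 network chains 7 fell, and Col8a1 and Col8a2, chains of a short network collagen, had slopes of -0.17 and -0.07, the second not passing the test (adjusted p = 0.116, limma).

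Type VI collagen forms beaded filaments next to muscle fibres. Its main chains were bright, with means at 0 min of 28.1 ± 3.72 for Col6a1, 12.3 ± 0.692 for Col6a2 and 61.9 ± 5.71 for Col6a3 (SD, n = 3 arrays each). Their slopes were -0.10, -0.15 and -0.18 log2 per hr, and all passed the test. Col6a1 was 29.8, 30.7 and 23.9 at 0 min and 18.9, 21.2 and 25.4 at 230 min, falling in replicates 1 and 2 and not in replicate 3. Its difference from Col6a3 was 0.09 log2 per hr (2 of 3 time courses, exact permutation adjusted p = 0.0592, n = 15 arrays) and that from Col6a2 0.05 (2 of 3, adjusted p = 0.226 by the same exact test). All 8 beaded filament and anchoring chains fell in the trend.

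Among the collagens that decorate fibrils 9 of 9 fell. The brightest was Col12a1, which was 26.8, 27.8 and 23.4 at 0 min and 16.2, 15.7 and 14.8 at 230 min. These groups did not overlap, and the slope was -0.22 ± 0.04 log2 per hr (SE, adjusted p = 0.000378, limma), the lowest among the 31 brighter collagens. Col16a1 and Col9a3 followed in level, with means of 5.78 and 4.33 at 0 min and slopes of -0.14 each. Of the transmembrane, multiplexin and other chains 7 of 7 fell, with Col18a1, the precursor of endostatin, at 7.07 ± 0.952 (SD, n = 3 arrays) at 0 min and 4.85 ± 0.932 at 230 min, and Col23a1 and Col26a1 at 3.45 and 3.07 at 0 min.

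All 7 glycoproteins of the basement membrane fell, and the 6 brighter ones had slopes between -0.32 and -0.18, with a median of -0.22, and Col4a2 and Col4a1, collagens of the same structure, had -0.14 and -0.18, a contrast that was not tested. Lamb1 (10395163), the beta 1 chain of laminin, was 34.9, 22.6 and 27.2 at 0 min and 18.5, 8.48 and 13.5 at 230 min, without overlap, and 46.7% ± 8.19 (SD, n = 3) was left. Its slope of -0.32 ± 0.04 log2 per hr (SE, adjusted p = 1.82e-05, limma) was the lowest of the 56.

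Laminin assembles as a trimer of an alpha, a beta and a gamma chain, and the gamma 1 transcript Lamc1 (10358816) was 31.0, 22.8 and 25.8 at 0 min. It was 22.9, 11.2 and 17.5 at 230 min, which overlapped in replicate 1, and the slope was -0.20 ± 0.05 (SE, adjusted p = 0.00268, limma). Lamb1 minus Lamc1 came to -0.12 log2 per hr, with -0.14, -0.11 and -0.12 in replicates 1, 2 and 3 (exact permutation test, adjusted p = 0.00781, n = 15 arrays). Lama5, an alpha chain, fell by 0.22 log2 per hr from a mean of 15.8. Lama4, another alpha chain, was at 1.39 ± 0.141 (SD, n = 3 arrays) at 0 min, close to the floor of the array, and its difference from Lama5 (0.15 log2 per hr, exact permutation adjusted p = 0.0124, n = 15 arrays) carries that limit. The nidogens, which link laminin to type IV collagen, had means of 52.0 (Nid1) and 12.9 (Nid2) at 0 min and slopes of -0.18 and -0.22, a difference that did not pass the test (exact permutation adjusted p = 0.123, n = 15 arrays).

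**Figure D4:**
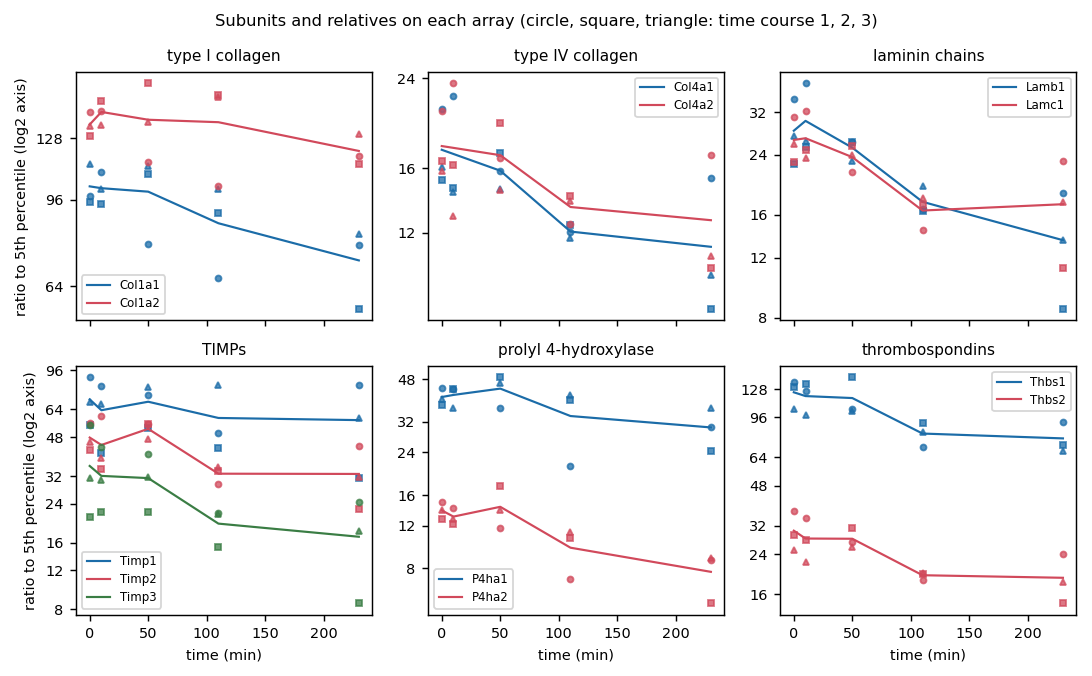
Ratios to the 5th percentile on each array (y axes, log2 scale) against minutes (x axes) for 6 groups of related matrix genes; circles, squares and triangles are time courses 1, 2 and 3, and lines join the means. Within each probe set, the line of Lamb1 falls more steeply than that of Lamc1, and that of Timp3 more steeply than that of Timp1.

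Matricellular proteins bind the matrix and cell surface receptors without being structural. Sparc (10386058), which binds collagen, was 138, 129 and 129 at 0 min and 127, 93.9 and 117 at 230 min, all 3 arrays at 230 min being below those at 0 min. Its slope of -0.08 ± 0.04 log2 per hr did not pass the test over all probe sets (SE, adjusted p = 0.0562, limma). Thbs1 (10474700), thrombospondin 1, was 137, 130 and 104 at 0 min and 91.8, 72.7 and 68.4 at 230 min, without overlap. It fell by 0.19 ± 0.04 log2 per hr (SE, adjusted p = 0.000426, limma), and 62.8% ± 6.14 (SD, n = 3) was left. Thbs2 had the same slope of -0.19, and the pair differed by less than 0.01 log2 per hr (exact permutation adjusted p = 0.986, n = 15 arrays), with time courses on both sides of 0. Tnc, tenascin C, was 37.4, 21.2 and 26.0 at 0 min and 24.1, 9.51 and 17.9 at 230 min, which overlapped. Its slope was -0.23 ± 0.04 (SE, adjusted p = 0.000364, limma).

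Bgn (10600169), the small proteoglycan biglycan, was 77.3, 50.1 and 57.9 at 0 min and 70.6, 41.2 and 57.4 at 230 min. The groups overlapped, and Bgn had 91.4%, 82.3% and 99.3% left in replicates 1, 2 and 3 (mean 91.0% ± 8.52, SD, n = 3). Its slope of -0.06 ± 0.05 log2 per hr was the shallowest of the 56 (SE, adjusted p = 0.277, limma). Vcan (10410931), the large proteoglycan versican, was 62.9, 42.5 and 54.8 at 0 min and 37.5, 24.6 and 34.3 at 230 min, without overlap, and fell by 0.21 ± 0.04 log2 per hr (SE, adjusted p = 0.000497, limma). Decorin and lumican, also proteoglycans, were dim, Dcn at 1.73 and Lum at 0.973 at 0 min.

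Of the enzymes that fold and cross-link collagen 6 of 6 fell. P4ha1 (10363350) and P4ha2 (10376074) encode alternative catalytic subunits of collagen prolyl 4-hydroxylase. P4ha1 was 43.98, 37.7 and 39.8 at 0 min and 30.4, 24.2 and 36.5 at 230 min, and P4ha2 was 14.9, 12.8 and 13.8 at 0 min and 8.63, 5.75 and 8.84 at 230 min, with no overlap in either. The slopes were -0.13 and -0.24 log2 per hr, and P4ha1 was the higher in 3 of 3 time courses, by 0.10 (exact permutation adjusted p = 0.00458, n = 15 arrays). Plod2, a lysyl hydroxylase, fell by 0.20 ± 0.05 from a mean of 21.4 (SE, adjusted p = 0.00178, limma).

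Lox (10458894) and Loxl1 (10594066) encode lysyl oxidases, and Loxl1 acts mainly on elastin. Lox was 54.8, 46.2 and 47.8 at 0 min and 39.2, 29.4 and 32.8 at 230 min, and Loxl1 15.6, 17.6 and 11.3 at 0 min and 9.28, 5.92 and 8.36 at 230 min, each without overlap. Their slopes were -0.16 and -0.25 log2 per hr. The difference of 0.09 passed the test (exact permutation adjusted p = 0.0256, n = 15 arrays), but it was 0.09, 0.19 and 0.00 in replicates 1, 2 and 3, so that 1 time course did not show it.

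The proteases and their inhibitors held the widest contrast. Timp3 (10365482), the inhibitor that stays bound to the matrix, was 54.3, 20.9 and 31.4 at 0 min and 24.4, 8.52 and 18.1 at 230 min, which overlapped between time courses but was lower in each of them. It fell by 0.30 ± 0.04 log2 per hr (SE, adjusted p = 2.73e-05, limma), and 47.8% ± 8.92 (SD, n = 3) was left. Timp1 (10598976), a secreted inhibitor, was 89.2, 54.5 and 69.3 at 0 min and 82.1, 31.3 and 58.2 at 230 min, which overlapped. Its slope of -0.09 ± 0.05 did not pass the test (SE, adjusted p = 0.0817, limma). Timp2 (10393559), which also takes part in activating Mmp2, lay between, with 55.7, 42.0 and 45.5 at 0 min and 43.7, 22.7 and 31.7 at 230 min. The groups overlapped, and the slope was -0.17 ± 0.05 (SE, adjusted p = 0.00816, limma).

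Timp3 was lost faster than Timp1 by 0.21 log2 per hr (exact permutation adjusted p = 0.00458, n = 15 arrays) and faster than Timp2 by 0.13 (adjusted p = 0.00781 by the same exact test), in 3 of 3 time courses each. Timp1 and Timp2 differed by 0.08, also in 3 of 3, which did not pass (exact permutation adjusted p = 0.0803, n = 15 arrays). The metalloproteases Mmp14, which sits in the cell membrane, and Mmp2, a gelatinase, had slopes of -0.18 and -0.19 log2 per hr from means of 50.7 and 6.84 and did not differ detectably (-0.01 log2 per hr, exact permutation adjusted p = 0.765, n = 15 arrays).

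Of the 18 pairs of subunits and relatives fixed for comparison, 16 could be tested, and 8 differed after adjustment over the 16. The pairs that differed were Col1a1 and Col1a2, Col4a1 and Col4a2, Lama4 and Lama5, Lamb1 and Lamc1, Lox and Loxl1, P4ha1 and P4ha2, and Timp3 with each of Timp1 and Timp2. Lama4 was near the floor of the array, with a slope of -0.06 log2 per hr where the 500 probe sets closest to it in level had a median of -0.07, so its pair with the brighter Lama5 cannot be read as a difference in decay. This count was 7 without replicate 1, 3 without replicate 2, 5 without replicate 3, 5 without the low 110 min and 230 min arrays, and 8 with a background of 1 subtracted. Level also differed within other pairs, and the differences were not adjusted for it. Probe sets closest in level had median slopes of -0.21 and -0.26 for Lox and Loxl1, and -0.22 and -0.26 for P4ha1 and P4ha2. For Col1a1 and Col1a2 they were -0.15 and -0.12, and for Timp1, Timp2 and Timp3 -0.18, -0.21 and -0.24. For Col4a1 and Col4a2 they were -0.26 each, and for Lamb1 and Lamc1 -0.24 each.

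**Figure D5:**
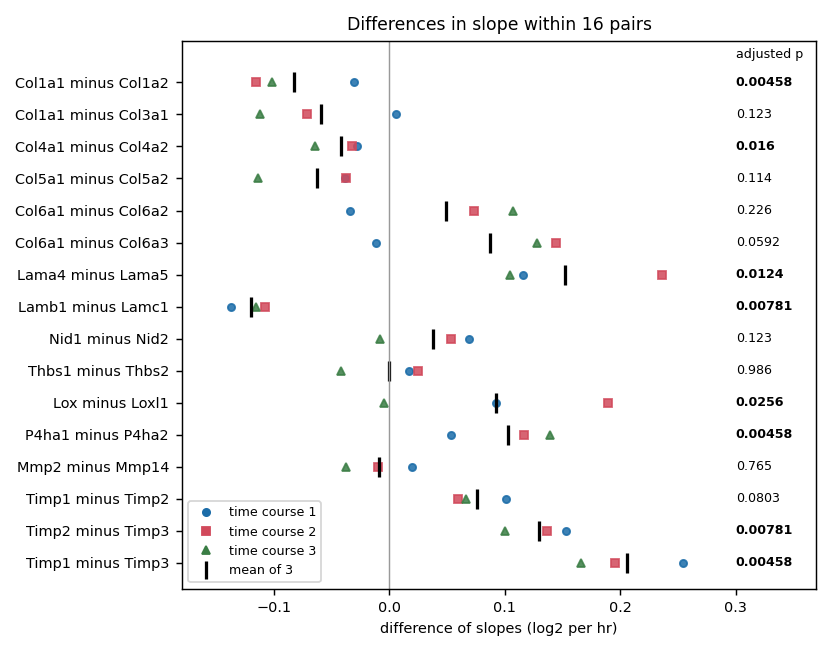
Difference of slopes in log2 per hr (x axis) for 16 pairs of matrix genes (y axis); symbols are the 3 time courses, bars their mean, and the numbers at the right the exact permutation p adjusted over the 16 pairs, in bold where under 0.05. In 8 pairs the p is under 0.05, and the largest mean difference is 0.21 for Timp1 minus Timp3.

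With the fit used here, half-lives could rarely be fixed for these transcripts within 230 min. An exponential decay was fitted to each time course, and a half-life was called reliable when the rate had p under 0.05 and the 95% interval was narrower than 2 half-lives, in at least 2 of 3 time courses. This held for 1 of 73 genes, compared with 5.84% of all probe sets and 11.1% of the brighter ones. The study, by criteria stated in the same terms, reported reliable half-lives for far more mRNAs than the 1469 probe sets that passed here. The reason was not tested, so the low counts may be particular to this fit. The gene was Col5a1 (10470462), with 4.79, 4.15 and 5.64 hr in replicates 1, 2 and 3, a mean of 4.86 ± 0.747 hr (SD, n = 3 time courses). It was reliable in replicates 2 and 3 only, where the 95% intervals ran from 149 to 560 min and from 215 to 694 min. As 2 time courses had to pass, leaving out replicate 2 or 3 could only end this call.

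With the interval set aside, 7 of 73 genes had p under 0.05 in at least 2 time courses, compared with 19.6% of all probe sets and 33.7% of the brighter ones. They were Timp3, Lamc1, Col5a1, Lama5, Col5a3, Col2a1 and Col9a3, of which Col5a3 and Col2a1 fall outside the rule for named genes. Lamb1 had fitted half-lives of 2.69, 2.91 and 3.79 hr (mean 3.13 ± 0.581, SD, n = 3 time courses), Timp3 of 2.61, 3.14 and 4.39 hr (mean 3.38 ± 0.913) and Thbs1 of 5.04, 4.09 and 6.37 hr (mean 5.16 ± 1.14). None of these 3 met the criteria. Over the 56 brighter genes the half-life at the median rate was 5.86, 4.91 and 8.33 hr in replicates 1, 2 and 3, against 3.43, 3.37 and 5.28 hr over the brighter probe sets, longer in every time course.

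A wider list of 121 other matrix genes, of which 112 were matched and 75 were brighter, served as a comparison within the same biology. In the trend 99 of 112 fell and 0 rose, and of the 75 brighter ones 72 fell, the middle slope being -0.19 log2 per hr, against 75.8% of all probe sets and 96.1% of the brighter ones that fell. Relative to the median change of the brighter probe sets, 36 of 75 were slower and 8 faster, compared with 23.1% and 25.1% of the brighter probe sets. P4hb, the shared beta subunit of prolyl 4-hydroxylase, Pcolce, an enhancer of procollagen processing, and Ppib, a prolyl isomerase of the endoplasmic reticulum, were the brightest. P4hb and Pcolce had slopes of -0.08 each that did not pass the test (adjusted p = 0.0517 and 0.129, limma), Ppib fell by 0.21, and Spock2, a dimmer proteoglycan, fell by 0.11 log2 per hr.

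The wider list also held transcripts with slopes below that of any of the 73, and these were not tested against them. Ccn1 and Ccn2, matricellular proteins induced early by growth factors, and Has2, a hyaluronan synthase, had slopes of -1.10, -0.79 and -0.75 log2 per hr. Ccn1 was 67.6, 57.2 and 36.98 at 0 min and 3.82, 2.34 and 3.56 at 230 min, so that 6.46% ± 2.86 (SD, n = 3) was left. Ccn2 and Has2 had 13.4% ± 3.83 and 13.5% ± 2.64 left, while the lowest of the 56 brighter genes, Lamb1, had 46.7%.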

How the data were processed

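The values, as deposited, are linear ratios on Affymetrix Mouse Gene 1.0 ST arrays: the authors set each array's 5th percentile to 1. How probe sets were summarised and background handled, and with which software, is not given in the sources used here. Detection p-values were not used here. Of 25175 probe sets 21044 had a single symbol in the platform annotation, 1492 several and 2639 none, and all 73 genes were matched by gene number to the RefSeq table (GRCm38.p6).

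The members, gene lists, pairs and tests were chosen with earlier results of these data known. Log2 ratios of all probe sets, with no filter on low values, were fitted with limma 3.58.1 (R 4.3.3) against hours, or against time points, with the time course as a block, and p-values were adjusted by Benjamini-Hochberg over all 25175. The block follows the study, which fitted each time course alone; of 30 pairs of arrays with the same replicate number 29 deviated together (correlation over 0.1, median 0.362), against 14 of 60 other pairs (median -0.22). Half-lives were fitted as A·exp(-kt) on the ratios by least squares with 95% profile intervals; one was reliable where the rate had p under 0.05 and the interval was narrower than 2 times the half-life, in at least 2 of 3 time courses. Differences in slope within pairs were tested over all 1728000 orders of the time labels within time courses, two-sided. The scripts were tested on simulated data. Python 3.11.15, numpy 2.4.6, scipy 1.17.1, pandas 2.3.3 and matplotlib 3.10.9 were used.

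The text names the genes of the pairs, the 3 brightest of each role, the 5 steepest and 5 shallowest slopes among the brighter genes, any that rose and, of the other matrix genes, the 3 brightest, steepest and shallowest; other genes are named to account for a count. Alternatives covered scaling, centring, a level filter, a subtracted background of 1 (floor 0.5), the variance model, the block, the curve, the choice of probe set and leaving out each replicate or the 2 low arrays. The number of arrays, 3 a time point, limits the precision. The centre on the median change was added after the data were seen. Promoter sequence came from the RefSeq table, which held an entry for 52 of the 73 genes.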

Additional observations from a re-analysis of the deposited data

How the results depend on the processing

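Scaling turned the direction in time of many named genes, though not of Lamb1 (-0.14 and -0.0015 log2 per hr under the 2 alternatives), and the order of the genes and the pair differences do not rest on it. With arrays divided by their median, 2 genes fell and 15 rose in the trend, when 21.4% and 40.3% of all probe sets did. At 230 min 1 fell and 12 rose, when 4256 and 9020 of 25175 probe sets did. The slopes of 24 named genes then turned positive, in log2 per hr: 0.0077 for Col8a1, 0.0139 for Col26a1, 0.0157 for Timp2, 0.0248 for Col23a1, 0.0253 for Lox, 0.0356 for Col18a1, 0.0359 for Col6a2, 0.0377 for Col9a3, 0.0411 for Col16a1, 0.0415 for Col4a2, 0.0418 for Col1a1, 0.0429 for Col5a2, 0.0474 for P4ha1, 0.0638 for Dcn, 0.0653 for Fn1, 0.0848 for Col6a1, 0.0913 for Timp1, 0.10 for Col3a1 and Sparc, 0.11 for Fbn2, 0.12 for Col8a2, Lama4 and Col1a2, and 0.13 for Bgn. With arrays divided by their 75th percentile, 0 fell and 70 rose in the trend, when 7.56% and 74.1% of all probe sets did. At 230 min 0 fell and 68 rose, when 1748 and 17719 of 25175 probe sets did, and 0 half-lives were reliable. The slopes of 42 named genes were then positive: 0.022 for Timp3, 0.0689 for Loxl1, 0.0806 for P4ha2, 0.0866 for Tnc, 0.0973 for Nid2, 0.10 for Col12a1, Lama5 and Vcan, 0.12 for Col5a1, Lamc1, Plod2 and Mmp2, 0.13 for Thbs1, Thbs2, Col6a3 and Mmp14, 0.14 for Nid1, Col4a1 and Col8a1, 0.15 for Col26a1 and Timp2, 0.16 for Col23a1 and Lox, 0.17 for Col18a1, Col6a2 and Col9a3, 0.18 for Col16a1, Col4a2, Col1a1, Col5a2 and P4ha1, 0.20 for Dcn and Fn1, 0.22 for Col6a1, 0.23 for Timp1, 0.24 for Col3a1 and Sparc, 0.25 for Fbn2, Col8a2 and Lama4, and 0.26 for Col1a2 and Bgn. The cause is the construction of the alternatives, which shift all slopes by 1 amount.

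Relative to the typical transcript, centring on the median of all probe sets left 15 genes slower and 2 faster, when 10142 and 5385 of 25175 probe sets were. Lamb1 was then at -0.14, and the relative slopes of 18 other named genes turned negative: -0.11 for Timp3, -0.0672 for Loxl1, -0.0555 for P4ha2, -0.0496 for Tnc, -0.0389 for Nid2, -0.0353 for Col12a1, -0.0352 for Lama5, -0.0319 for Vcan, -0.0203 for Col5a1, -0.0173 for Lamc1, -0.0161 for Plod2, -0.0111 for Mmp2, -0.0084 for Thbs1, -0.0081 for Thbs2, -0.0021 for Col6a3, -0.0016 for Mmp14, -0.0008 for Nid1, and -0.0002 for Col4a1. Centring on the median change of the brighter probe sets, chosen after seeing the data, turned Timp3 to -0.038 and left 55 slower (59.1% of all probe sets). With that centre 46 were slower with a background of 1 subtracted, when 13349 of 25175 probe sets were. Of the 56 brighter genes 38 were slower in that setting, against 26.1% of the brighter probe sets. Without the low 110 min and 230 min arrays 41 of the 73 genes were slower, when 13399 probe sets were. Between 36 and 42 were slower without 1 replicate, when between 12062 and 13774 probe sets were. Lamb1, at -0.0017 with the first centre, was 0.0546 with a background of 1 subtracted, between -0.0144 and 0.0141 without 1 replicate, and 0.0168 without the low arrays.

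Leaving out 1 replicate gave between 21 and 61 genes that fell at 230 min, when between 39.7% and 66.2% of all probe sets did. It gave between 0 and 1 reliable half-life and between 3 and 7 pairs that differed, and leaving out the low arrays gave 5 pairs. Thbs1 minus Thbs2 turned to 0.0066 with a background of 1 subtracted and between -0.0133 and 0.0207 without 1 replicate or the low arrays, and Mmp2 minus Mmp14 to between -0.0238 and 0.0047 without 1 replicate and 0.0239 without the 0 min arrays. Reliable half-lives numbered 0 with a constant floor in the curve, 0 when all 3 time courses had to pass, and 7 by the p of the rate alone. The cause was not tested. Without the replicate block 65 genes fell in the trend and 59 at 230 min, when 19054 and 16981 of 25175 probe sets did. With the first centre and no block 67 genes were slower, when 18082 probe sets were, and 6 pairs differed.

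A ratio near 1 has little room to fall, and 3 arrays a time point limit the precision. Sampling ended at 230 min.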
